A study of Mus musculus with 12 samples.

Results

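The contactin genes of the mouse, Cntn1 to Cntn6, were followed through whole-genome bisulfite sequencing of cortex. The 6 genes were taken by name as members of the family, with no measured value in the rule, and all 6 passed the minimum of 500 calls in every library that left 19826 genes to test. The quantity throughout is the gene-body mCH level, the percent of cytosine calls outside CG within a gene that were read as methylated. Bisulfite converts unmethylated cytosine, so a call that stays a cytosine counts as methylated. The 12 libraries, from C57BL/6 mice, fall into 4 groups. At postnatal day 40 (P40) there were 4 wild-type (WT) libraries and 4 of the genotype miR29 KO. At 4 months there were 2 WT libraries and 2 of the genotype Dnmt3a mi5, whose titles read DNMT3AmiR29MUT. The labels name no promoter, Cre driver or shared allele, and they do not say which Mir29 genes the KO lacks or what mi5 stands for. They also do not say whether replicates came from separate animals, and any p-value here speaks to the spread among these libraries, which may be partly technical.

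Contactins are cell adhesion proteins of neurons and glia that are held on the cell surface by a lipid anchor and carry immunoglobulin-like and fibronectin type III domains. They act largely through partners in the same or an opposing membrane, among them the contactin-associated proteins (Cntnap genes), L1-type adhesion proteins, receptor phosphatases and proteins of the amyloid precursor family. mCH is laid down in neurons after birth by the DNA methyltransferase Dnmt3a and is dense in the bodies of many long neuronal genes. The miR-29 family is a set of microRNAs known to repress Dnmt3a mRNA, so the miR29 KO and the mutant of Dnmt3a bear on the same enzyme from either side.

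The mature miR-29 sequences are shown because they define the genotype compared at P40. The capitals mark the seed, bases 2 to 8, through which a microRNA pairs with its targets, and all 3 share it (RefSeq, assembly GRCm38.p6).
mmu-miR-29a-3p: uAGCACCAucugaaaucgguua
mmu-miR-29b-3p: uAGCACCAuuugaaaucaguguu
mmu-miR-29c-3p: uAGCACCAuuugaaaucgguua
Over the 4 Mir29 genes in the tables, total calls came to between 6 and 69 in the miR29 KO libraries, against 121 to 244 in the WT libraries of the same age. Summed coverage of these 4 genes was therefore lower in every library labelled KO than in any WT library of that age, though not at 0. The sums do not tell which of the 4 genes the KO lacks.

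The family is spread over 4 chromosomes, with Cntn1 on 15, Cntn2 on 1, Cntn5 on 9 and Cntn3, Cntn6 and Cntn4 in that order on 6. Start-site windows of 300 bases around the annotated start are shown for Cntn5 and Cntn6, whose levels moved most alike below, and for Cntn3, on the same chromosome as Cntn6. Capitals mark CG, the dinucleotide that the mCH level leaves out (RefSeq, GRCm38.p6, each read on the strand of its gene).
Cntn5, chr9:10904677-10904976, minus strand: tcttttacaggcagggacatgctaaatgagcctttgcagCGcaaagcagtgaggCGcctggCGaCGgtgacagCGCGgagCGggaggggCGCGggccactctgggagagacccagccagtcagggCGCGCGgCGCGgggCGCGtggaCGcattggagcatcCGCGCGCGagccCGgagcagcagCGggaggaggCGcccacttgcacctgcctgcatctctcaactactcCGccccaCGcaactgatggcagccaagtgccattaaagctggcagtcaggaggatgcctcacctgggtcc
Cntn6, chr6:104492794-104493093, plus strand: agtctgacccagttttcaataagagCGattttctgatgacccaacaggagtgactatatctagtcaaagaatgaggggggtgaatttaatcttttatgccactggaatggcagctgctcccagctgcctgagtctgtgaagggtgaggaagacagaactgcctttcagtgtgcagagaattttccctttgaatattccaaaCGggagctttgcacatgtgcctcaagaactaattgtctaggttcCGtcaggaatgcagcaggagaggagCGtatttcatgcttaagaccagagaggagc
Cntn3, chr6:102464618-102464917, minus strand: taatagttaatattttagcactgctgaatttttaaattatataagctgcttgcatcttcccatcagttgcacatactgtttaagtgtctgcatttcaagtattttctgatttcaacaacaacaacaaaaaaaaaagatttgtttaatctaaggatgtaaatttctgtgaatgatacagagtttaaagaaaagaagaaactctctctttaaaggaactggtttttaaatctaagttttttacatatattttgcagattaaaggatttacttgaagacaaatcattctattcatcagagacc
The Cntn5 window holds 26 CG, the Cntn6 window 4 and the Cntn3 window 0. Across 32851 windows of all genes the median was 7, and 94.6% held at least 1. The trinucleotide CAC, a context in which neuronal mCH is common, was counted on both strands and occurred 9 times in the Cntn5 window, 9 times in that of Cntn6 and 4 times in that of Cntn3, against a median of 10. It was present in 99.9% of all windows. The deposited values are sums over whole transcripts, so they give no level for these windows.

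The libraries held between 399563315 and 732985403 cytosine calls over genes. The median gene stood at 1.21% to 1.44% in the WT libraries at P40, at 1.63% to 2.39% in the miR29 KO, at 1.21% and 1.23% in the 4-month WT and at 2.20% and 2.22% in Dnmt3a mi5. The lowest KO value belonged to replicate 4, which was also the lowest KO library for all 6 contactin genes. In 4 libraries, 1 in each group, coverage of Y-linked genes was low. Cortex could not be checked against marker expression, since the tables hold methylation only.

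Most contactin genes are long and had many calls, with Cntn2 nearer to the typical gene. Cntn5 had 729843 calls in the mean library, Cntn4 582385, Cntn6 208462, Cntn3 174570, Cntn1 171500 and Cntn2 18619, where the median tested gene had 11244. Counting error was accordingly small for most of the family. For Cntn5 in WT replicate 1 at P40 the level of 1.43% had a 95% Wilson interval of 1.40% to 1.45%. The widest intervals were those of Cntn2, for which the first Dnmt3a mi5 library gave 1.97% with an interval of 1.71% to 2.27%. Such intervals cover counting error alone, and the libraries of a group differed by more than that. The dispersion of Cntn5 across replicates was 315.3 times the binomial one and that of Cntn2 7.76 times, with a median of 5.13 over all tested genes. This factor depends on the number of calls, so it does not rank genes by their spread. In WT at P40 the SD was 0.182 on a mean of 1.59% for Cntn5 and 0.277 on 1.31% for Cntn2.

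In every group the contactin genes fell into a lower set, Cntn1, Cntn2 and Cntn3, and a higher set, Cntn4, Cntn5 and Cntn6. Cntn1 encodes the contactin of paranodal junctions, where it pairs with the product of Cntnap1 beside the nodes of Ranvier. Its level in the 4 WT libraries at P40, replicates 1 to 4, was 1.32%, 1.36%, 1.32% and 1.11%, and in the 2 WT libraries at 4 months 1.34% and 1.38%. Replicate 4 lay below the other P40 libraries, which were close together.

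Cntn2 encodes TAG-1, which sits at juxtaparanodes with the product of Cntnap2 and guides axons during development. It measured 1.03%, 1.67%, 1.37% and 1.18% at P40 and 1.12% and 1.27% at 4 months in WT. The spread at P40 was wider than for any other contactin gene relative to the mean, with replicate 2 high and replicate 1 low. Cntn3, an axonal contactin, stood at 1.20%, 1.51%, 1.32% and 1.28% at P40 and at 1.29% and 1.18% at 4 months, again with replicate 2 the highest of its age.

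Cntn4, a contactin of olfactory and other axons that binds amyloid precursor protein, measured 1.50%, 1.92%, 1.79% and 1.69% in the P40 WT libraries and 1.47% and 1.48% at 4 months. It was the highest of the family in all 6 WT libraries, at 4 months by a margin within counting error. Cntn5, expressed in the auditory pathway and other sensory circuits, gave 1.43%, 1.80%, 1.69% and 1.45% at P40 and 1.46% in both 4-month libraries. Cntn6, known from cerebellar synapses and as a ligand of Notch, gave 1.36%, 1.83%, 1.66% and 1.40% at P40 and 1.40% and 1.37% at 4 months. Cntn4 to Cntn6 shared the pattern of Cntn3 at P40, with replicate 2 highest and replicate 1 lowest. The pattern is not particular to these genes. The median gene was also highest in replicate 2, at 1.440%, and lowest in replicate 1, at 1.213%, with replicate 4 close at 1.216%.

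The order was tested within libraries, as the log2 ratio of 2 levels, over all 15 pairs and 12 libraries, with a two-sided exact sign-flip permutation test. Of the 15 pairs, 10 passed after Benjamini-Hochberg adjustment over the pairs. All 9 pairs of a lower with a higher gene were among them. The sets were named from these same levels, so this count follows in part from how they were drawn. How often other genes keep their order across libraries was not tested. In 8 of these 9 pairs the lower gene was below the higher one in 12 of 12 libraries. The exact p was then 0.000488, the smallest this test can give, and the adjusted exact p 0.000916. Cntn1 was below Cntn6 in all libraries but 1, a 4-month WT library (adjusted exact p = 0.00163). The separation was modest in size, with a mean log2 ratio of -0.43 for Cntn2 against Cntn4 and -0.28 for Cntn3 against Cntn6 at its ends.

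Within the lower set no order held. The adjusted exact permutation p over 12 libraries was 0.249 for Cntn1 against Cntn2, 0.856 for Cntn1 against Cntn3 and 0.161 for Cntn2 against Cntn3. In the higher set Cntn5 exceeded Cntn6 in 11 of 12 libraries, by only 0.04 on the log2 scale (adjusted exact p = 0.00439). Cntn4 did not differ from Cntn5 (adjusted exact p = 0.778) or from Cntn6 (adjusted exact p = 0.0872) beyond its spread over all 12 libraries, which pool genotypes of unlike order. In WT at P40 the mean log2 ratio of Cntn4 to Cntn5 was 0.12 ± 0.07 (SD, n = 4), with Cntn4 higher in 6 of 6 WT libraries over both ages, and in the KO it was -0.05 ± 0.09 (SD, n = 4).

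**Figure D1:**
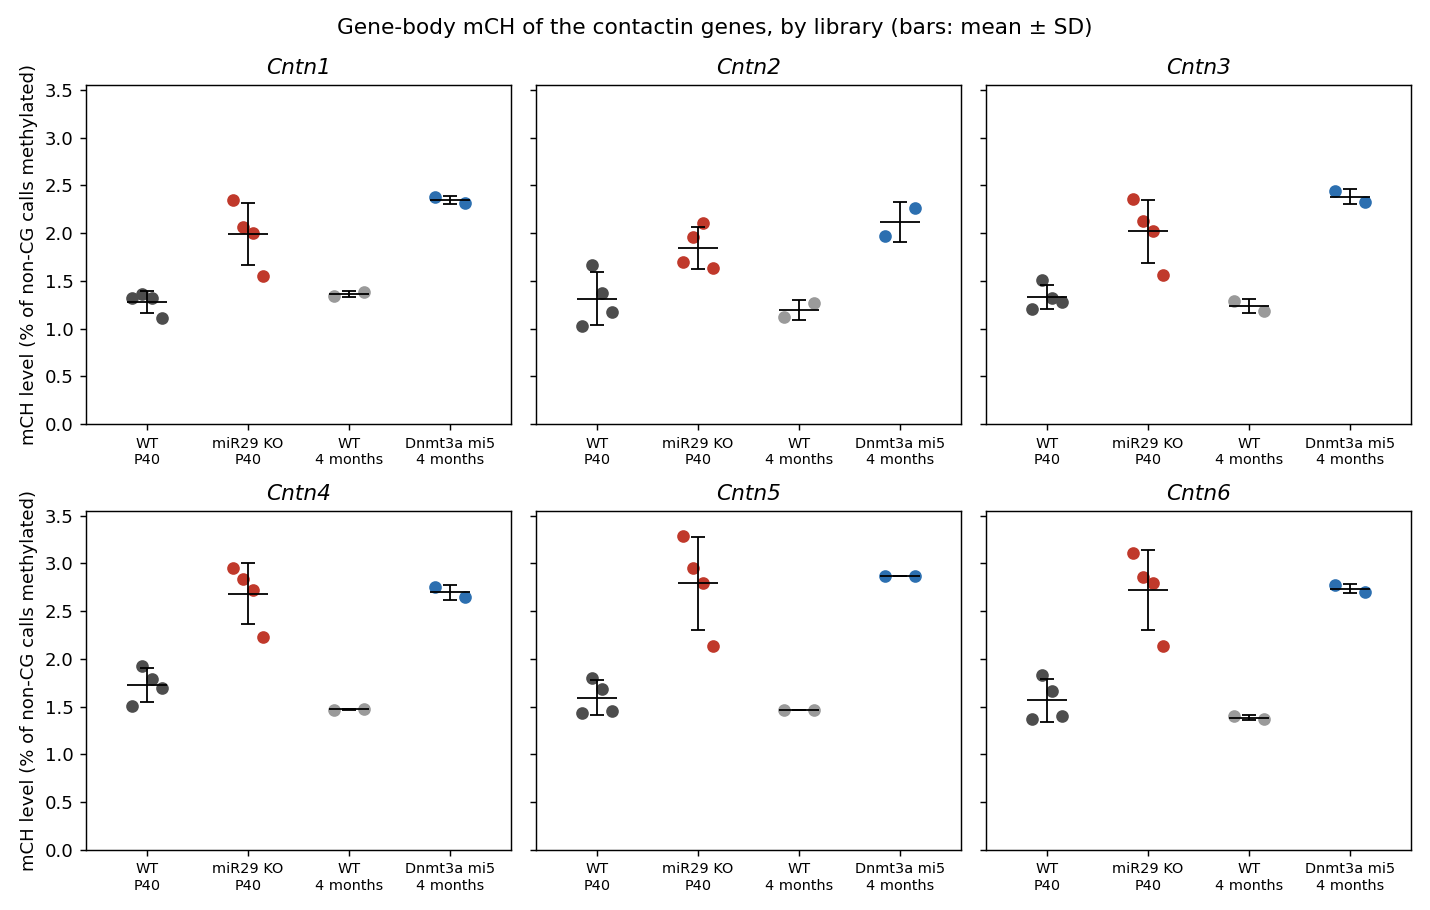
mCH level of each contactin gene in every library, in percent of non-CG calls, with 1 panel per gene and the groups along the horizontal axis. Points are libraries and bars are the mean ± SD (n = 4 at P40, n = 2 at 4 months). The KO and mi5 libraries lie above the WT libraries of their age, apart from an overlap at P40 for Cntn2.

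In the miR29 KO at P40 all 6 contactin genes rose, by 1.41 to 1.75 times their WT mean. This was the common course of genes in these libraries. Of all genes tested, 76.5% were called higher and 0.0454% lower at an adjusted p under 0.05, and the count of 6 of 6 has to be read against that share. In bulk tissue a change in the share of a cell type and a change of methylation per cell cannot be told apart. The changes below are log2 odds ratios from a quasi-binomial model fitted to all genes, whose median over all genes was 0.65 and over the 6 contactin genes 0.66.

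Cntn5 and Cntn6 had the largest changes of the family by point estimate. Cntn5 measured 3.29%, 2.95%, 2.80% and 2.13% in the 4 KO libraries, a mean of 2.79% ± 0.485 (SD, n = 4) against 1.59% ± 0.182 (SD, n = 4) in WT. All KO libraries were above all WT libraries, and replicate 4 was the nearest to them. The log2 odds ratio was 0.84 (SE 0.13, adjusted p = 5.83e-05). Cntn6 gave 3.11%, 2.86%, 2.79% and 2.13% in the KO, or 2.72% ± 0.418 (SD, n = 4) against 1.56% ± 0.221 in WT. Its groups were as well separated, with a log2 odds ratio of 0.84 (SE 0.13, adjusted p = 5.87e-05). These changes lay at percentiles 89.4 and 88.5 of all tested genes.

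Cntn4 measured 2.95%, 2.84%, 2.72% and 2.23% in the KO, a mean of 2.68% ± 0.316 (SD, n = 4) against 1.73% ± 0.177 in WT, and again no library overlapped. The log2 odds ratio of 0.66 (SE 0.12, adjusted p = 8.92e-05) stood at percentile 52.6, close to the median gene.

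In the lower set, Cntn1 reached 2.34%, 2.07%, 2.004% and 1.55% in the KO, a mean of 1.99% ± 0.328 (SD, n = 4) against 1.28% ± 0.115 in WT. Cntn3 reached 2.36%, 2.13%, 2.02% and 1.56%, a mean of 2.02% ± 0.333 (SD, n = 4) against 1.33% ± 0.129. The lowest KO library, replicate 4 in both genes, was above the highest WT library, by the smaller margin for Cntn3 (1.56% against 1.51%). The log2 odds ratios were 0.66 (SE 0.14, adjusted p = 0.000371) for Cntn1 and 0.63 (SE 0.14, adjusted p = 0.000526) for Cntn3.

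Cntn2 showed the smallest rise, to 1.69%, 1.96%, 2.10% and 1.64% in the KO, a mean of 1.85% ± 0.219 (SD, n = 4) against 1.31% ± 0.277. WT replicate 2, at 1.67%, lay above KO replicate 4, at 1.64%, so that Cntn2 alone of the family had groups that overlapped. Its log2 odds ratio was 0.52 (SE 0.15, adjusted p = 0.00395), at percentile 27.5 of all genes.

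Groups without overlap were seen for 5 of 6 contactin genes, where 57.1% of all genes had every KO library above every WT library. An exact two-sided permutation test of the levels, whose smallest p with 4 against 4 is 0.0286, gave that value for these 5 genes (adjusted exact p = 0.0343 over the family) and 0.0571 for Cntn2.

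**Figure D2:**
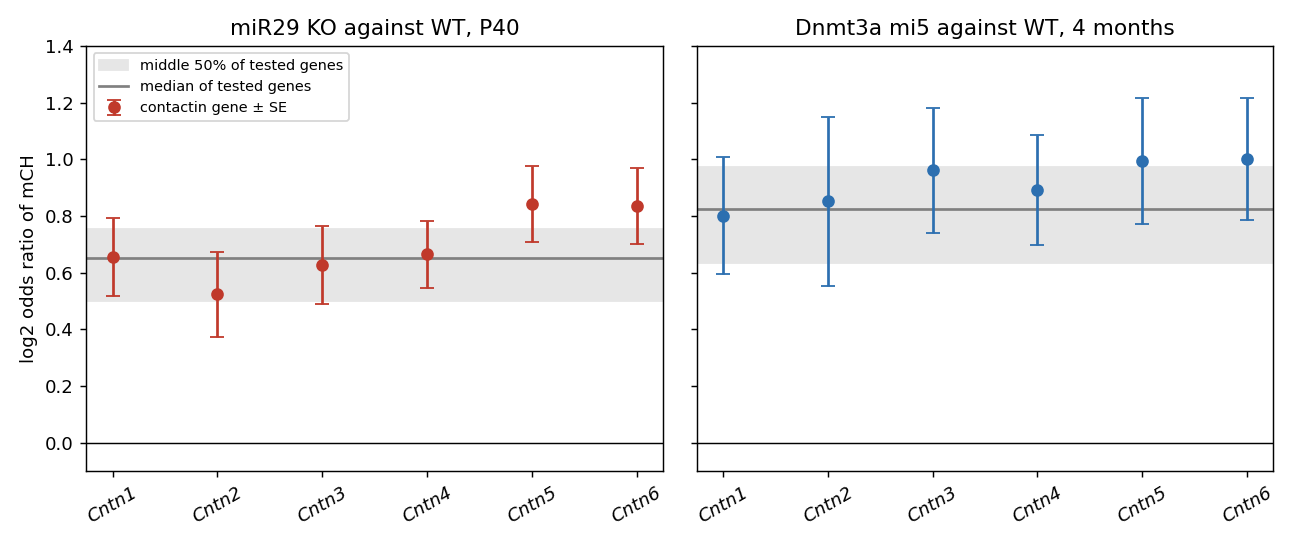
Change in mCH of each contactin gene as a log2 odds ratio ± SE, in the miR29 KO at P40 (left) and in Dnmt3a mi5 at 4 months (right). The grey line is the median over all tested genes (0.65 and 0.83) and the band their middle 50%. Cntn5 and Cntn6 lie above the band on the left and at its upper edge on the right.

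In Dnmt3a mi5 at 4 months the 6 contactin genes again rose, by 1.72 to 1.97 times the WT mean of that age. Of all tested genes 58.8% were called higher and 0% lower, and this count too has to be read against that share. Cntn5 measured 2.87% and 2.86% in the mi5 libraries against 1.46% in both WT libraries, and Cntn6 2.77% and 2.70% against 1.40% and 1.37%. Cntn4 measured 2.75% and 2.64% against 1.47% and 1.48%. The replicates of these 3 genes were close together and far from the other genotype. The log2 odds ratios were 0.99 (SE 0.22, adjusted p = 0.00302) for Cntn5, 1.001 (SE 0.21, adjusted p = 0.003) for Cntn6 and 0.89 (SE 0.19, adjusted p = 0.003) for Cntn4. The model takes 1 dispersion per gene from all 12 libraries. Its SE and p-values at 4 months therefore do not measure the spread of the 4-month replicates alone.

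Among the lower set, Cntn1 stood at 2.38% and 2.31% in mi5 against 1.34% and 1.38% in WT, and Cntn3 at 2.44% and 2.33% against 1.29% and 1.18%. Cntn2 stood at 1.97% and 2.27% against 1.12% and 1.27%. The log2 odds ratios were 0.80 (SE 0.21, adjusted p = 0.00449) for Cntn1, 0.96 (SE 0.22, adjusted p = 0.00312) for Cntn3 and 0.85 (SE 0.30, adjusted p = 0.0213) for Cntn2. No contactin gene had overlapping groups here, as was the case for 86.2% of all genes in this direction. With 2 libraries a group the exact permutation test cannot go below 0.333, which it gave for all 6. The median change was 0.93 over the contactin genes and 0.83 over all genes.

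Leaving out a 4-month library leaves 1 library in its group, which is then assumed to vary like the other groups. Without WT replicate 1 at 4 months, Cntn1 (log2 odds ratio 0.78, adjusted p = 0.0524) and Cntn2 (0.77, adjusted p = 0.123) were no longer called, and the number of all genes called higher fell from 11649 to 4672. Cntn2 was also lost without WT replicate 2 (0.94, adjusted p = 0.0764) or mi5 replicate 2 (0.74, adjusted p = 0.122), and the counts of all genes were 6308 and 8521. The estimates for Cntn1 and Cntn2 with all libraries were 0.80 and 0.85. Without mi5 replicate 1 all 6 contactin genes were still called, among 7710 genes.

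The mi5 change exceeded the KO change in point estimate for every contactin gene, by a log2 difference of 0.15 for Cntn1, 0.33 for Cntn2, 0.33 for Cntn3, 0.23 for Cntn4, 0.15 for Cntn5 and 0.17 for Cntn6. This was the common direction, since 77.7% of all tested genes had a positive difference. The median difference was 0.18 over all genes and 0.20 over the contactin genes. No contactin gene passed the test of the difference itself (adjusted p = 0.998 for each). As ratios of odds ratios, the 95% intervals ran from 0.772 to 1.58 for Cntn1, from 0.775 to 2.03 for Cntn2, from 0.864 to 1.84 for Cntn3, from 0.845 to 1.62 for Cntn4, from 0.762 to 1.61 for Cntn5 and from 0.778 to 1.62 for Cntn6. These intervals include no difference and differences in either direction. Over all genes 0% were called in either direction, 1.3% were higher and 0.156% lower at an unadjusted p under 0.05, and limma called 0 genes on log2 levels and 3 on percent levels. Age differed between these comparisons as well, and the mutants' genotypes and ages cannot be told apart.

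Between the WT groups, at 4 months and at P40, no contactin gene was called (adjusted p = 1 for each, unadjusted p from 0.221 to 0.66). Of all genes 0.131% were called higher and 0% lower. Cntn1 was higher by 0.09 on the log2 odds scale, from 1.28% to 1.36% ± 0.0313 (SD, n = 2), and the other 5 were lower by point estimate, from -0.10 for Cntn3 to -0.23 for Cntn4. Most genes were lower too, since 34.85% of all tested genes were higher by point estimate. The median was -0.08 over all genes and -0.12 over the contactin genes. Cntn4 was the only contactin gene whose libraries did not overlap, its 4-month values of 1.47% and 1.48% lying below the lowest P40 value of 1.50%. The share of all genes without overlap was 12.1% in that direction and 6.03% in the other. The exact permutation p for Cntn4 was 0.133, where 2 libraries against 4 allow no value below 0.0667. Age cannot be told apart from the cohort of mice.

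The rise of the median gene was removed by centring each library on its median log odds. Relative to that median, Cntn5 and Cntn6 rose in the miR29 KO, by 0.16 (adjusted p = 0.00151) and 0.15 (adjusted p = 0.0255) on the log2 odds scale. The other 4 genes did not pass, with -0.03 for Cntn1 (adjusted p = 0.772), -0.16 for Cntn2 (adjusted p = 0.464), -0.06 for Cntn3 (adjusted p = 0.398) and -0.02 for Cntn4 (adjusted p = 0.763). The median centred change over all genes was -0.031 in the KO, so the values of Cntn1 and Cntn4 were close to that of the median gene. After centring 1.04% of all genes were called higher and 3.55% lower. These counts, 207 and 704 genes, depend on single libraries: they were 70 and 365 without WT replicate 1 at P40, 95 and 446 without WT replicate 4, 80 and 233 without KO replicate 1, 117 and 337 without KO replicate 2, and 116 and 479 without KO replicate 3. With limma on centred log2 levels no gene of the 19826 was called in either direction (988 higher and 2477 lower at an unadjusted p under 0.05). The estimates for Cntn5 (0.15, adjusted p = 0.146) and Cntn6 (0.14, adjusted p = 0.191) were then close to those above. The call of Cntn6 was also lost without KO replicate 1 (adjusted p = 0.0632), KO replicate 3 (0.0699), WT replicate 1 (0.123) or WT replicate 4 (0.0777) at P40 and in a fit of the P40 libraries alone (0.0523), while that of Cntn5 was kept in each of these.

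The same can be read from each library's ratio of gene level to median gene level. Cntn5 stood at 1.18 to 1.25 times the median in the P40 WT libraries and at 1.31 to 1.38 times in the KO. Cntn6 stood at 1.12 to 1.27 times in WT and at 1.29 to 1.35 times in the KO. Neither gene's groups overlapped, as was true of 3.21% of all genes in this direction and 7.35% in the other (exact permutation p = 0.0286 for each, adjusted exact p = 0.0857 over the 6 genes). Cntn1 stood at 0.910 to 1.09 times in WT and 0.934 to 0.981 times in the KO, and Cntn4 at 1.24 to 1.39 and 1.23 to 1.37 times, with overlap in both.

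At 4 months Cntn5 went from 1.19 and 1.21 times the median in WT to 1.29 and 1.30 times in mi5, and Cntn6 from 1.13 and 1.14 times to 1.23 and 1.25 times. The groups did not overlap, as in 16.4% of all genes in that direction. The centred change of 0.13 for either gene was not called (adjusted p = 0.331 for Cntn5 and 0.498 for Cntn6), and of all genes 0% were called higher and 0.0353% lower after centring. Cntn3 also rose without overlap, from 0.978 and 1.049 times the median in WT to 1.057 and 1.10 times in mi5. Cntn1 fell without overlap, from 1.09 and 1.145 times to 1.051 and 1.073 times. Cntn2 and Cntn4 overlapped.

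**Figure D3:**
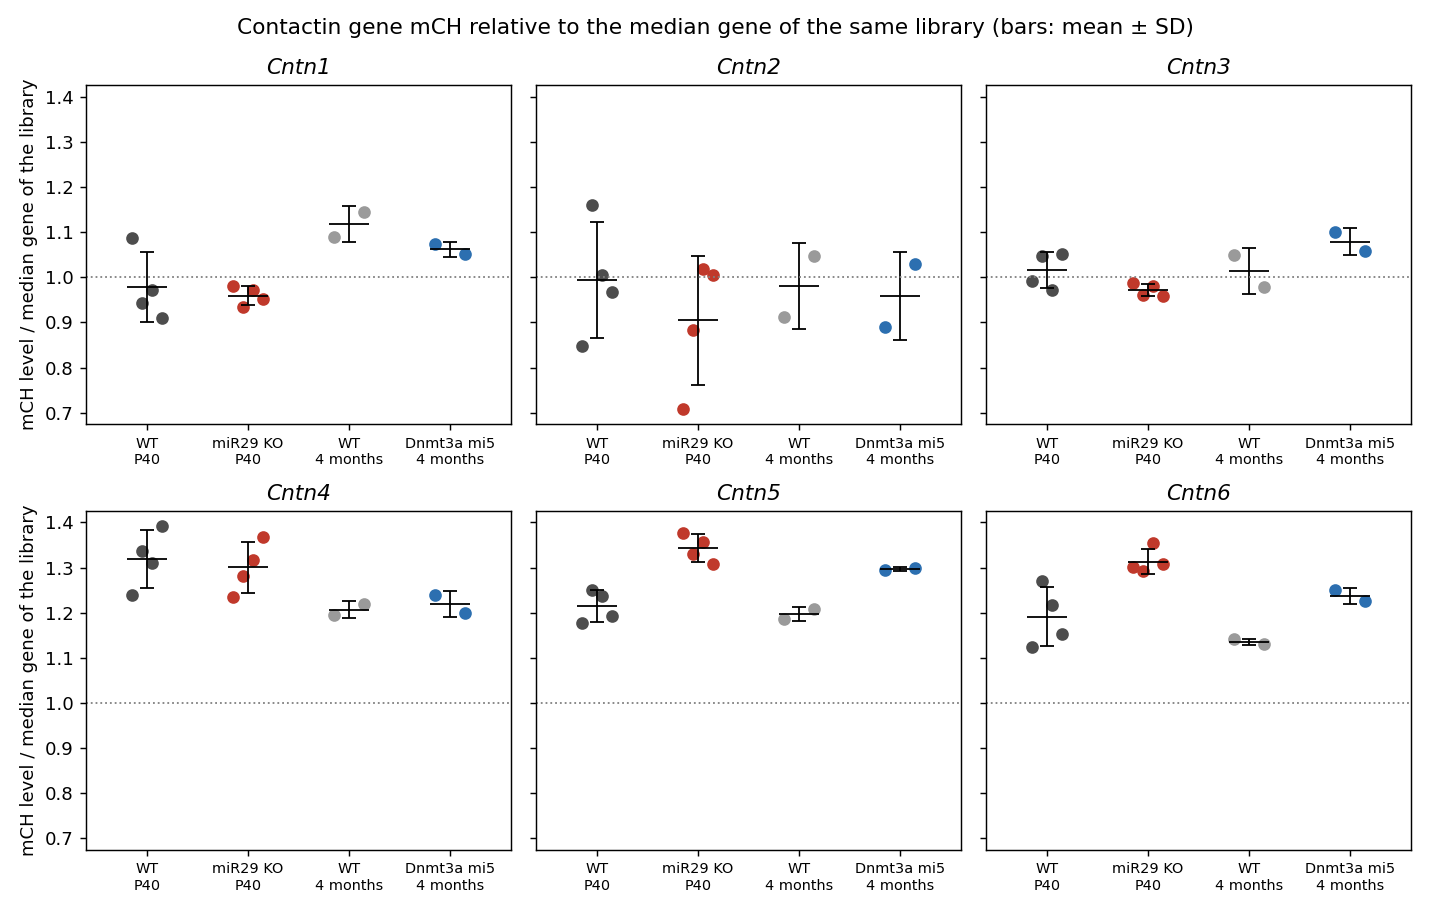
Ratio of each contactin gene's mCH level to the median gene of the same library (vertical axis, no unit), with 1 panel per gene and 1 point per library. Cntn5 and Cntn6 lie higher in the KO and mi5 libraries than in WT of the same age, while Cntn1 and Cntn4 overlap at P40. At 4 months Cntn3 also lies higher in mi5, and Cntn1 lies lower.

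The gene at the top of the family differed between the genotypes. Cntn4 led in all 6 WT libraries, whereas Cntn5 led in 3 of the 4 KO libraries and in both mi5 libraries, with Cntn4 still first in KO replicate 4. At 4 months the mean log2 ratio of Cntn4 to Cntn5 was 0.01 in WT and -0.09 in mi5. Of the 15 pairs of contactin genes, 0 differed between KO and WT in their ratio after adjustment by the exact permutation test, and 5 did at an unadjusted p under 0.05. The 5 were Cntn5 against Cntn1, Cntn3 and Cntn4, and Cntn6 against Cntn3 and Cntn4 (exact permutation p = 0.0286, adjusted exact p = 0.0857 for each).

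Levels were not even along Cntn1 and Cntn4, which are listed with 3 transcripts each. The transcripts of Cntn1 begin at successive starts, and their calls, 73.7% and 61.7% of those of the longest, match the shares of the annotated span, 73.5% and 62.1%. The calls gained from NM_001159647 to NM_007727, the stretch between the later starts, can therefore be taken by subtraction. In WT at P40 that stretch measured 1.50% ± 0.210 (SD, n = 4) and the shorter transcript 1.19% ± 0.0862 (SD, n = 4). In the KO the values were 2.52% ± 0.437 and 1.89% ± 0.270, and the stretch was higher in 12 of 12 libraries. The most upstream stretch, gained with NM_001159648, was nearer to the rest, at 1.37% and 1.24% in WT, and higher in 9 of 12 libraries.

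Cntn4 ran the other way. Calls found in NM_001109749 and not in NM_173004 measured 1.32% ± 0.311 (SD, n = 4) in WT at P40, against 1.74% ± 0.175 for NM_173004, and 1.93% ± 0.196 against 2.70% ± 0.320 in the KO. They were lower in 12 of 12 libraries. The subtraction assumes that the smaller Cntn4 transcript lies within the larger, which was not tested. The stretch is a small one, with 14448 calls in the mean library. Calls added from NM_001109751 to NM_173004 measured 1.61% against 1.84% in WT and 2.68% against 2.72% in the KO. The transcripts of Cntn5 were nearly identical in calls, and Cntn2, Cntn3 and Cntn6 had 1 row each. A two-sided exact sign-flip permutation test over the 12 libraries, added after seeing the data and adjusted over the 4 stretches, gave adjusted exact p = 0.000977 for the stretch between the later Cntn1 starts and 0.061 for the upstream one. For Cntn4 it gave adjusted exact p = 0.000977 for the calls added by NM_001109749 and 0.0026 for those added by NM_173004, which were lower in 11 of 12 libraries.

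**Figure D4:**
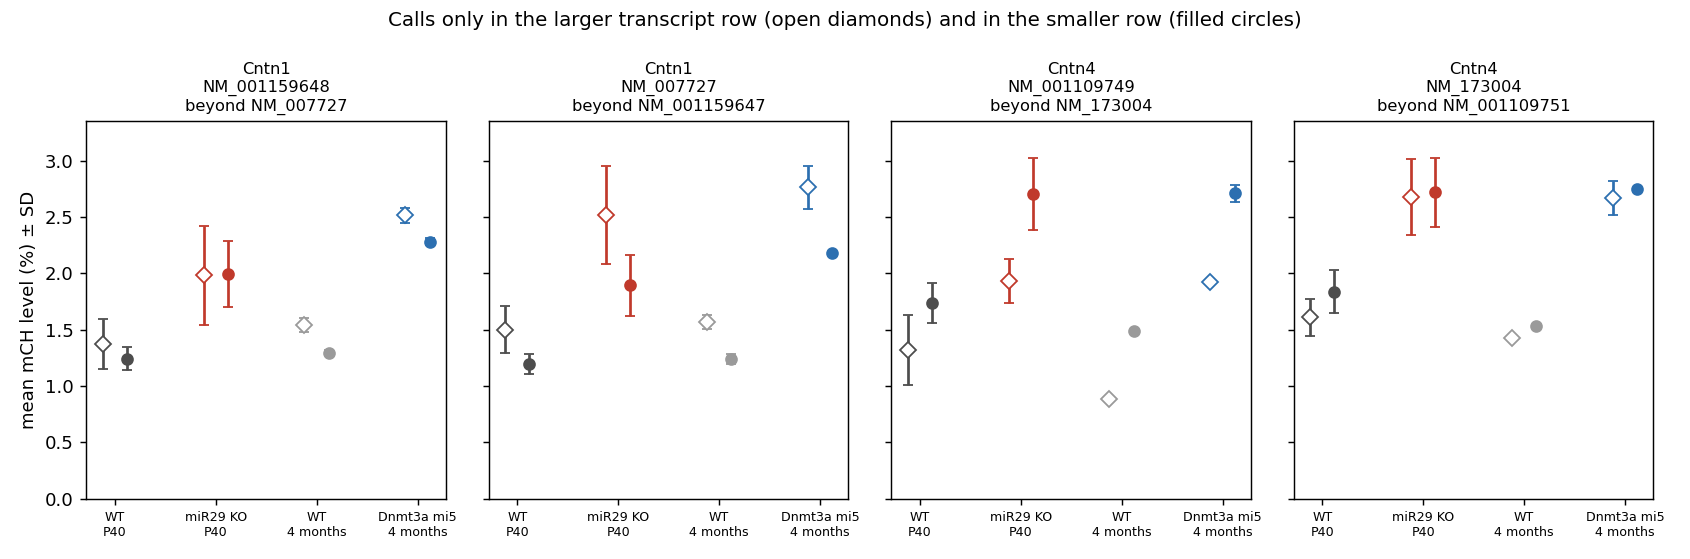
mCH level (percent, mean ± SD) of the calls found only in the larger of 2 transcripts (open diamonds) and in the smaller transcript (filled circles), by group, for Cntn1 and Cntn4. The second Cntn1 panel has the open symbols above the filled ones and the third panel, for Cntn4, has them below, in all 4 groups.

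The tested genes within 3 places of a contactin gene, 28 without the family itself, had a median of 1.43% in WT and 2.19% in the KO at P40. Of them 23 were called higher in the KO and 25 in mi5, where the background shares are 76.5% and 58.8%. On chromosome 6, Chl1 lies next to Cntn6 and encodes an adhesion protein that joins contactins in the same membrane. It measured 1.58% in WT and 2.71% in the KO at P40, beside 1.56% and 2.72% for Cntn6. At 4 months Chl1 measured 1.71% in WT and 3.23% in mi5, above the 1.38% and 2.73% of Cntn6. Cntn3, 1 tested gene further, measured 1.33% and 2.02% at P40.

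Neighbours were not tested against the contactin genes, and the p-values below are for each neighbour's own change in the KO. Il5ra, beside Cntn4, stood at 1.70% and 2.53% (adjusted p = 0.000211). Further out, Trnt1, an enzyme of tRNA processing, stood at 0.488% in WT and 0.503% in the KO (adjusted p = 0.879) and Crbn, a substrate receptor of a ubiquitin ligase, at 0.564% and 0.525% (adjusted p = 0.678). Cntn4 itself stood at 1.73% and 2.68%. Nfasc, which encodes neurofascin, a partner of the Cntn1 protein at paranodes, lies beside Cntn2 and measured 0.885% in WT and 1.30% in the KO (adjusted p = 0.00151). Around Cntn5 the levels at P40 in WT ran from 1.28% for Pgr and 1.42% for the adjacent 4930568E12Rik, below Cntn5 itself, to 3.31% for Maml2, a coactivator of Notch signalling, which measured 4.91% in the KO (adjusted p = 7.32e-05). Pdzrn4, beside Cntn1, stood at 2.23% and 3.46% (adjusted p = 7.61e-05), above Cntn1 itself. A tested gene that overlaps a contactin gene was found only for Cntn3, 4930587E11Rik, at 1.44% and 2.18%, and some of its calls may be shared.

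**Figure D5:**
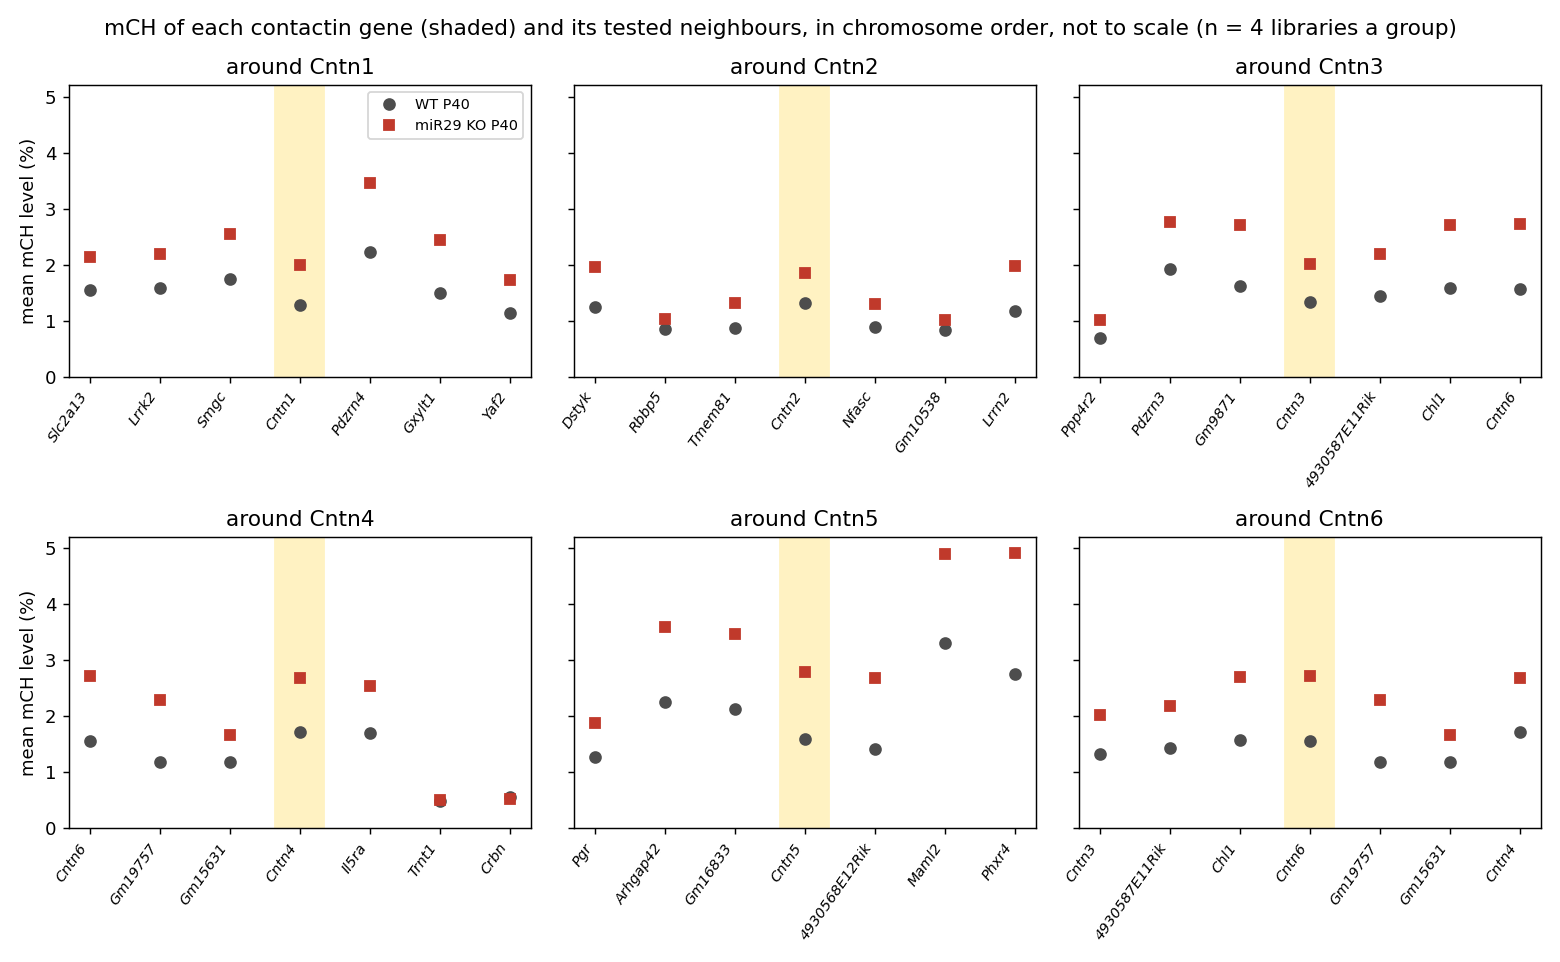
Mean mCH level (percent) in WT (circles) and miR29 KO (squares) at P40 for each contactin gene, shaded, and the 3 tested genes on either side, in chromosome order and not to scale (n = 4 libraries a group). The genes around Cntn5 reach the highest levels, and Trnt1 and Crbn near Cntn4 the lowest.

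A list of 29 genes for contactin partners and related adhesion proteins was examined, and all 29 were tested. In the KO 28 were called higher and 0 lower, where 76.5% of all genes were called higher, and the median log2 odds ratio was 0.70 beside 0.65 for all genes. In mi5 25 were higher and 0 lower, where 58.8% of all genes were called higher, and the median was 0.87 beside 0.83. Ncam1, a neural adhesion protein that binds itself across cells, rose the most of the list in the KO, from 1.11% to 2.22% (log2 odds ratio 1.03, SE 0.14, adjusted p = 5.71e-05). Sdk2 and Sdk1, synaptic adhesion proteins of retinal circuits, rose by 0.73 and 0.69 (adjusted p = 5.71e-05 for each). Aplp1, of the amyloid precursor family, rose by 0.70 with a wide error (SE 0.28, adjusted p = 0.0304). Cntnap1, whose product is the paranodal partner of contactin 1, was the one gene of the list not called, at 0.26 (SE 0.21, adjusted p = 0.25). Depth was low for both, with 7537 calls in the mean library for Cntnap1 and 5353 for Aplp1, where the median of the list was 181835.

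In mi5 the smallest p-values belonged to Opcml, Lsamp and Ncam2, adhesion proteins of which Opcml and Lsamp are lipid-anchored like contactins, at 0.95, 0.94 and 0.94 (adjusted p = 0.003 for each). Cntnap1 (0.53, adjusted p = 0.276), Aplp1 (1.02, adjusted p = 0.145), L1cam (adjusted p = 0.107) and App (adjusted p = 0.0615) were not called. After centring, 2 of the 29 rose in the KO, Ncam1 by 0.34 (adjusted p = 6.39e-05) and Cntnap2 by 0.09 (adjusted p = 0.0247). The 3 that fell were App at -0.21 (adjusted p = 0.0343), Dscam at -0.17 (adjusted p = 0.00246) and Nrcam at -0.18 (adjusted p = 0.0251). The shares of all genes were 1.04% higher and 3.55% lower. These partner calls fell to 1 higher and 1 lower without WT replicate 1 or 4 at P40 or KO replicate 1, 2 or 3, to 1 and 2 in a fit of the P40 libraries alone, and to 0 and 0 with limma.

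Across the 12 libraries, centred log2 levels of Cntn5 and Cntn6 followed each other (r = 0.92), while those of Cntn1 and Cntn4 ran opposite ways (r = -0.84). The libraries share their groups, so these are descriptions. Among 11248 genes with at least 5000 calls in every library, the genes most like Cntn6 were Cntnap2 (r = 0.97) and Ppp1r1c (r = 0.94), and those most like Cntn5 were Caprin2 (r = 0.97) and Cr2 (r = 0.96). Cntn1 was matched best by Gpt2 and 3110039M20Rik (r = 0.94 for each), Cntn4 by Hgf (r = 0.93) and Medag (r = 0.91). For Cntn3 the nearest were Pcdh9 and Chrm3 (r = 0.87 for each), and for Cntn2 Trim71 (r = 0.86) and Gdf6 (r = 0.84). With so many genes compared over 12 libraries, 1 gene in 100 reached r = 0.85 with Cntn5 or Cntn6 and r = 0.64 with Cntn2.

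Marker genes of cortical cell types were examined for their own gene-body methylation, which is not their expression. In the KO the markers called higher were 3 of 8 tested for excitatory neurons, 5 of 6 for inhibitory neurons, 6 of 6 for astrocytes, 7 of 7 for the oligodendrocyte lineage, 4 of 5 for microglia and 5 of 5 for vascular cells. In mi5 the counts were 3, 3, 6, 5, 4 and 5. The shares of all genes called higher were 76.5% in the KO and 58.8% in mi5. The level summed over a list ran from 1.49% to 1.81% for excitatory markers in the P40 WT libraries and from 1.86% to 2.64% in the KO, and from 1.82% to 2.19% and 2.41% to 3.40% for astrocyte markers. The part of cell composition in the contactin changes was not tested.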

How the data were processed

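Per the labels' protocols, sonicated cortical DNA carried a spike of unmethylated lambda DNA into whole-genome bisulfite sequencing. Reads were processed with BSMAP on mm9, per the submitters' processing notes, with no version given. Each deposited table lists RefSeq transcripts with their methylated non-CG calls, a whole-number count, and their total calls, treated as an expected count. Only 35.7% to 62.2% of the deposited totals in a library are whole numbers. How the authors derived them the sources used here do not give. Incomplete conversion would add to every level, and conversion rates were not used here.

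Totals were rounded. Of 36672 rows a table, 300 matched no symbol of RefSeq (GRCm38.p6, used for names and neighbours), and 1395 rows of 410 repeated identifiers were left out. The transcript with most calls stood for each of 23882 genes, and 19826 had 500 calls in every library. A quasi-binomial logistic model per gene with 4 group means was fitted in R 4.3.3, with dispersion moderated by limma 3.58.1 (squeezeVar, trend, robust), and p-values were adjusted by Benjamini-Hochberg over all genes tested, with a threshold of 0.05. The model was tested on simulated data with the same overdispersion for every gene and no shift shared by a library. The replicates here did not vary in that way, so the test does not cover their spread. Exact permutation tests over libraries are two-sided. Correlations used log2(percent + 0.1), centred on each library median. Figures were drawn with matplotlib 3.10.9.

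The rule that picks the contactin genes uses names alone, but the family, the 29 partner genes and the marker lists were proposed with earlier results of these data known. Named genes are the 6 contactin genes, their neighbours, per comparison the 3 partners of smallest and 2 of largest p, and per contactin gene the 2 genes of highest r. Partners not called or called after centring, and the examples among neighbours, were chosen for the text with their values in view. The tests after centring by limma, by leaving out libraries and by ratio to the median were added after seeing the data. Replicates differed by more than sampling noise (chi-square per gene 2.73 or more), so none was counted as a duplicate. Alternatives were the model, pseudocount, minimum of calls, transcript, centring, background subtraction, libraries in the fit, replicate block, dispersion and Y-gene coverage.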

Additional observations from a re-analysis of the deposited data

Results flagged for a closer look

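The level of Cntn1 in WT replicate 4 at P40 was 1.107%, apart from the other 3 libraries of its group, which lay between 1.32% and 1.36%. Its gap to the nearest of them was 0.844 of the range of the group. It was the 1 such case among 12 sets of levels (6 genes in the P40 groups of 4 libraries) and 12 sets of ratios to the library median in the same libraries. Chance gives about 1 in 20 sets, so 1 case is near the number chance gives. Without this library the Cntn1 change in the KO was still called.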

How the results depend on the processing

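The 6 contactin genes were called higher in the KO under every alternative without centring, and leaving out single libraries gave 6 to 6. With centring 2 were, or 1 on leaving out WT replicate 1 or 4 at P40 or KO replicate 1 or 3 or in a fit of the P40 libraries alone, and 0 with limma. In mi5 the count was 6 but for 0 under centring, 0 with only the libraries that cover Y-linked genes (1 library a group at 4 months, where 1 gene of all was called), and 4 to 6 on leaving out a library. For age and for the difference between mutants it was 0 to 0 on leaving out a library. Among partners, centring left 2 of 28 calls in the KO and 0 of 25 in mi5. Centring subtracts the rise of each library's median by construction. The median change over all genes was then -0.031 in the KO and -0.041 in mi5. A turned sign therefore does not by itself place a gene below the median gene. The order of the contactin genes kept 10 to 11 pairs, and the KO ratios 0 to 0, on leaving out a library. Signs that turned under centring were, in the KO, -0.030 for Cntn1, -0.16 for Cntn2, -0.060 for Cntn3 and -0.022 for Cntn4; in mi5, -0.065 for Cntn1 and -0.015 for Cntn2; and in the difference between mutants, -0.036 for Cntn1, -0.031 for Cntn5 and -0.011 for Cntn6. The age change of Cntn2 ran from -0.23 to 0.024 on leaving out a library, the latter without WT replicate 2 at P40, and that of Cntn3 turned to 0.030 with only the libraries that cover Y-linked genes, and the cause was not tested. At P40 same-numbered deviations correlated at -0.157 to 0.211, within the range of unlike numbers (-0.234 to 0.416), so no pairing was seen. At 4 months the same-numbered value of -0.243 cannot decide this. With 2 libraries a group, same-numbered and crossed values mirror each other by construction. With the replicate block 6 contactin genes were called in the KO and 6 in mi5, among 15224 and 12339 genes higher, and 0 for age and for the difference. With the numbers crossed at 4 months the counts were 6 and 6, among 15417 and 12480. Depth limits Cntn2 most, with 9380 calls in its shallowest library.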
